A study of Mus musculus with 4 samples.

Results

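Genomic imprinting was examined in 56 mouse imprinted genes and their direct neighbours, chosen by name from known imprinted clusters. They were among 28883 genes with a methylation entry in the series, lay in 20 clusters on 10 chromosomes, and were matched by Ensembl identifier in GENCODE vM21. The cells were C3H10T1/2, a mouse embryo line of the C3H strain that behaves as mesenchymal stem cells (MSCs), and CpG methylation was read by reduced representation bisulfite sequencing (RRBS). There were 4 conditions of 1 library each: a non-targeting control siRNA (NC) without induction, an siRNA against DNMT1 (siDNMT1) without induction, NC followed by 3 days in osteoblast (OB) induction medium, and siDNMT1 followed by the same 3 days of OB induction. Every library, controls included, came from cells transfected for 48 h. Because each condition was a single library, no difference below has a replicate check and no p-value is given, and the methylation files do not show how far DNMT1 was depleted.

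The deposited value is a methylation level, the fraction of CpG cytosines read as methylated in a region, from 0 to 1. The read depth behind a level is unknown. All 56 genes had at least 1 gene entry, and 42 had a promoter (2 kb ahead of a transcription start, not always the first of the gene) with a level in all 4 libraries. Exons were listed in all 4 libraries for 50 genes, introns for 40, 5′ UTRs for 36 and 3′ UTRs for 16. CpG islands overlapping a gene or its 2 kb upstream numbered 51 of the 14359 islands listed, and they touched 43 of the genes. Of these 51 islands, 36 held an annotated start of an imprinted gene, 47 touched an exon, and 4 lay inside a gene without touching its exons. In all, 51 genes had a promoter or an island with 4 levels; Rtl1, Slc22a18, Slc22a2 and Asb4 had only other entries, and Mirg had only a promoter level of 0.667 in the siDNMT1 uninduced library.

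At an imprinted gene, the copy from 1 parent is expressed and the other is silent. The choice is set by a methylation mark laid down in egg or sperm at an imprinting control region, usually a CpG island, and the mark is kept through cell division by DNMT1, the maintenance methyltransferase, together with factors such as ZFP57, a zinc finger protein that binds a methylated hexamer. A control region whose mark is intact is thus methylated on a single allele. The files do not separate the alleles, so a level near 0.5 can come from a single methylated allele or from a mixture of cells, and these cannot be told apart. From textbook knowledge, 20 of the 56 genes were listed with a maternal gametic mark, 4 with a paternal one, 6 with a mark acquired after fertilisation, and 26 with no mark of their own. The paternal control regions of H19, Meg3, Dlk1 and Rasgrf1 lie outside the genes, so the entries of these genes are not the control regions themselves.

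Stretches of 8 islands on which the results turn are shown first, from GRCm38, plus strand, 5′ to 3′, with the ZFP57 hexamer TGCCGC, or GCGGCA where it lies on the other strand, in capitals. The sequence is that of the reference strain and leaves out annotated UTRs, while the levels given later belong to the whole island. The Peg13/Trappc9 stretch (chr15:72809916-72810115) and the Igf2r/Airn stretch (chr17:12742193-12742392) represent islands with levels near 0.5. The Inpp5f stretch (chr7:128687970-128688169) and the Nnat/Blcap stretch (chr2:157560269-157560468) represent islands of the maternal list with levels far above 0.5. The Kcnq1/Kcnq1ot1 stretch (chr7:143295608-143295807), the Plagl1 stretch (chr10:13091058-13091257), the Gnas/Nespas stretch (chr2:174297333-174297532) and the Peg3/Usp29 stretch (chr7:6730087-6730236) come from islands that differed between libraries and are described below.
Peg13/Trappc9: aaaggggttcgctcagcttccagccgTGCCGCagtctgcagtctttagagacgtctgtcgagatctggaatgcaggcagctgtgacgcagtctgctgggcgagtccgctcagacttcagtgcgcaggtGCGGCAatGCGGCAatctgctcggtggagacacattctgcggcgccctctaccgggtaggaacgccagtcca
Igf2r/Airn: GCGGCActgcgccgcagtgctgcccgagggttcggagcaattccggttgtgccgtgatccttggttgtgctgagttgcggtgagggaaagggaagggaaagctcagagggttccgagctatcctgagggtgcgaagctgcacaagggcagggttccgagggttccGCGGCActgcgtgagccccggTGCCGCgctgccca
Inpp5f: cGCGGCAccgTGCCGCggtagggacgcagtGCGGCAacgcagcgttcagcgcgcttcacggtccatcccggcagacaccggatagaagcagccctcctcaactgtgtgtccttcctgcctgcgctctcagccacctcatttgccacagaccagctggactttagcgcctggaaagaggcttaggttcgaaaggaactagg
Nnat/Blcap: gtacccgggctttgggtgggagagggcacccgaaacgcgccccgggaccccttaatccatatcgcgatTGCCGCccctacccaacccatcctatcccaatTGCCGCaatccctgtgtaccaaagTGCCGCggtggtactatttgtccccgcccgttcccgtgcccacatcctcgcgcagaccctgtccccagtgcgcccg
Kcnq1/Kcnq1ot1: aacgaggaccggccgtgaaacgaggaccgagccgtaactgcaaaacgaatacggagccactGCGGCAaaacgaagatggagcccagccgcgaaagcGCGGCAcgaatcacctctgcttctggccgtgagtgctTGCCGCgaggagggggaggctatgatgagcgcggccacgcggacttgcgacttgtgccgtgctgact
Plagl1: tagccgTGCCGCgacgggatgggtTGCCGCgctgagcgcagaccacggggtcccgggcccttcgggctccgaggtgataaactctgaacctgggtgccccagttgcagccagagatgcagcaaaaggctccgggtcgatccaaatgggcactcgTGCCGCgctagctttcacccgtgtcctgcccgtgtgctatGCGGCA
Gnas/Nespas: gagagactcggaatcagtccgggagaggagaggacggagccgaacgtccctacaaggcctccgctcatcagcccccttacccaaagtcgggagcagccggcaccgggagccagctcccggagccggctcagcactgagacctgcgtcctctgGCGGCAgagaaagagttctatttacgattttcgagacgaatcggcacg
Peg3/Usp29: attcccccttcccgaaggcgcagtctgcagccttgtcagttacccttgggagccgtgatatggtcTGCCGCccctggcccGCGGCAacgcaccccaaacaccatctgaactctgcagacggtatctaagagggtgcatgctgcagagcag
Each stretch was placed where its island holds the most hexamers outside UTRs, so that it holds the hexamer is set by the choice.

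Intermediate methylation was common at the islands of imprinted genes. In the NC uninduced library 27 of the 51 islands (52.9%) had a level of 0.3 to 0.7, against 15.9% of all 14095 islands with a level in every library. Another 16 lay below 0.3 and 8 above 0.7, whereas 74.6% of all islands lay below 0.3. The median over the imprinted islands was 0.454, and over all islands 0.0323. Promoters showed the same to a lesser degree: 24 of 42 (57.1%) lay between 0.3 and 0.7, beside 30.8% of all 20152 promoters, with medians of 0.461 and 0.191. Intermediate islands numbered 25 with siDNMT1 uninduced, 26 with NC OB and 25 with siDNMT1 OB. Those of promoters were 25, 25 and 24 in the same order.

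**Figure D1:**
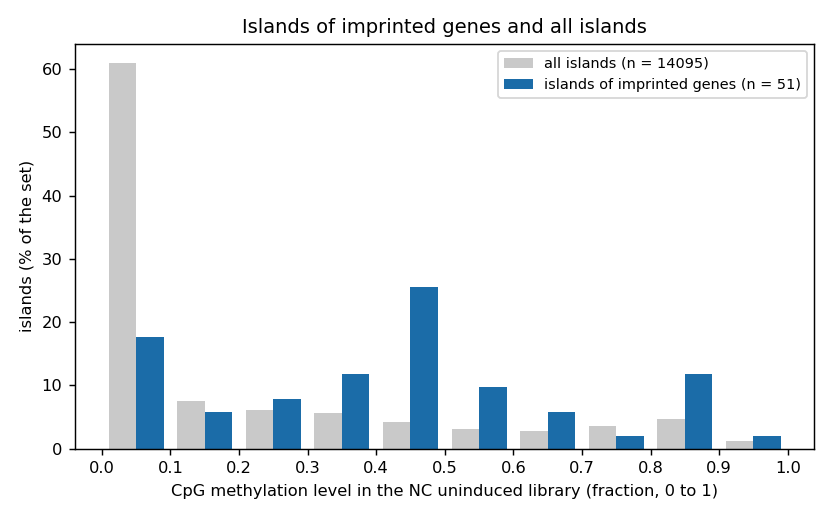
Share of CpG islands (%, vertical axis) by methylation level in the NC uninduced library (fraction, horizontal axis, steps of 0.1), for the 51 islands of imprinted genes (blue) and all 14095 islands (grey). The grey bars are highest below 0.1 and the blue bars are highest between 0.4 and 0.5, around the imprinted median of 0.454.

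Promoters of the maternal list had a higher median than those of unmarked neighbours, and the levels of these lists overlapped. In the NC uninduced library the 16 promoters of the maternal list had a median of 0.532, with a lowest level of 0.414 and a highest of 0.852, and 11 of them lay between 0.3 and 0.7. The 19 promoters of genes with no mark of their own ran from 0.0110 to 0.736, with a median of 0.289, and 8 of them lay between 0.3 and 0.7. Among the 19 was Usp29, whose promoter has the levels of the Peg3/Usp29 island. The median over all promoters was 0.191, and over the 4 promoters of the paternal list 0.629. The lowest promoter was that of Ube3a, a ubiquitin ligase, at 0.0110, 0.00830, 0.0102 and 0.00855 in the NC uninduced, siDNMT1 uninduced, NC OB and siDNMT1 OB libraries, the order used from here on. The promoters of Trappc9, a subunit of a vesicle tethering complex, Copg2, a coat protein of transport vesicles, and Tssc4 were also below 0.03 in every library. The highest was that of Nnat, which encodes the small membrane protein neuronatin, at 0.852, 0.841, 0.850 and 0.837. Next came Inpp5f, an inositol phosphatase gene, at 0.829, 0.825, 0.819 and 0.818, and Rasgrf1, a Ras exchange factor gene, at 0.828, 0.830, 0.794 and 0.762. The Inpp5f promoter entry has exactly the levels of the second Inpp5f island, which lies at an internal start. That promoter and that island are thus a single measurement.

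Islands of genes with a gametic mark were followed one by one, and 25 islands touched such a gene. Of these, 21 had a mean level between 0.2 and 0.8 over the 4 libraries and are called gametic-list islands. Their median level was 0.484, 0.501, 0.494 and 0.463, in the order given above, and that of the 3508 islands in the same band that touch none of the 56 genes was 0.436, 0.436, 0.409 and 0.402. The remaining 4 islands lay outside the band. The first Inpp5f island, near the 5′ end of the gene, was at 0.0134, 0.0168, 0.0170 and 0.0152, and the second Inpp5f island, at an internal start, was at 0.829, 0.825, 0.819 and 0.818. The Nnat/Blcap island was at 0.908, 0.906, 0.902 and 0.8997. The second Dlk1 island, inside the gene, was at 0.849, 0.844, 0.835 and 0.797.

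Several islands of maternal-list genes lay between 0.4 and 0.6 in every library. The first Zrsr1/Commd1 island (chr11:22971975-22972993), at a retrogene related to the splicing factor U2af1, was at 0.508, 0.501, 0.499 and 0.514, and its range over the 4 libraries, 0.0156, was the smallest among the 21 gametic-list islands. The second, a neighbour with 17 CpGs, was at 0.487, 0.508, 0.441 and 0.444. The island of Impact, a regulator of translation, was at 0.411, 0.417, 0.430 and 0.433. The second Igf2r/Airn island, at the start of the receptor gene that clears IGF2, is a promoter island and not the gametic control region, and was at 0.456, 0.467, 0.450 and 0.477, and the first, in the Igf2r intron that is known to hold the promoter of the antisense RNA Airn, was at 0.485, 0.541, 0.495 and 0.480. The second Grb10 island, of the gene for an adaptor that restrains insulin signalling, lies near the gene's 5′ end. It was slightly lower, at 0.379, 0.399, 0.397 and 0.416. Which of the Grb10 islands is the gametic control region was not established here. The Peg13/Trappc9 island, of a noncoding RNA inside Trappc9, was at 0.518, 0.512, 0.498 and 0.454, and the Mcts2/H13 island, of a translation factor retrogene inside H13, was at 0.466, 0.490, 0.494 and 0.533.

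Other islands of the gametic lists lay on 1 side of 0.5 in all 4 libraries. The first Grb10 island, at a start further inside the gene, was at 0.805, 0.787, 0.786 and 0.792. The Nap1l5 island, of a retrogene related to nucleosome assembly proteins, was at 0.683, 0.679, 0.645 and 0.657, and the Nap1l5 promoter at 0.680, 0.679, 0.645 and 0.653. The Rasgrf1 island, of the paternal list, was at 0.817, 0.810, 0.781 and 0.753. The Gnas locus, which encodes the stimulatory G protein alpha subunit from several starts, had islands at both ends of this scale: the first island of Gnas alone was at 0.661, 0.676, 0.665 and 0.678, and the second was at 0.222, 0.206, 0.236 and 0.196. The first Gnas/Nespas island was at 0.551, 0.567, 0.507 and 0.537. It is counted because it touches genes of the maternal list, and which of the Gnas islands are gametic control regions was not established here. The first Plagl1 island, in an intron of this zinc finger gene, was at 0.410, 0.392, 0.368 and 0.354.

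**Figure D2:**
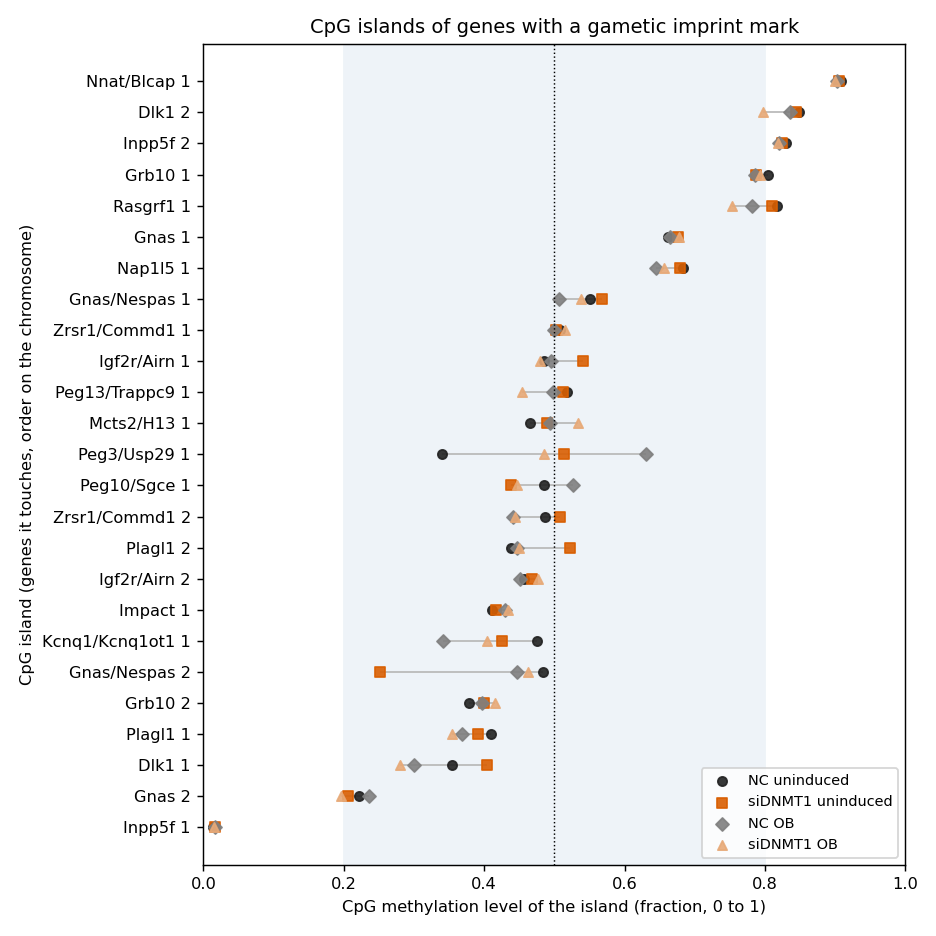
Methylation level (fraction, horizontal axis) of the 25 CpG islands that touch a gene with a gametic mark, with 1 symbol per library, a grey line from the lowest to the highest level, and the band of mean level from 0.2 to 0.8 shaded. Most islands show 4 symbols close together, and the widest lines are those of Peg3/Usp29 with a range of 0.291 and Gnas/Nespas 2 with a range of 0.232.

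Over all 21 gametic-list islands, variation among the 4 libraries was not smaller than elsewhere. Their median range was 0.0612, beside 0.0522 for the 3508 islands. A range of at least 0.1 was seen in 4 of 21 (9.72% of the others), at Peg3/Usp29, Gnas/Nespas 2, Kcnq1/Kcnq1ot1 and Dlk1 1, and a range under 0.05 in 8 of 21 (46.7% of the others). Within the gametic-list islands the range was larger where CpGs were few. The 8 gametic-list islands with fewer than 50 CpGs had a median range of 0.0672, and the 13 with 50 or more had one of 0.0401, beside 0.0528 and 0.0517 in the other islands of the band, where the range hardly differed with CpG number. The part of CpG number in the ranges was not tested.

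DNMT1 siRNA was compared with NC to ask whether the imprinted genes lost methylation when the maintenance enzyme was targeted. Before induction, 0 of 42 promoters were at least 0.1 lower with siDNMT1 (0.814% of all promoters), and 2 were at least 0.1 higher (0.67%), Usp29 and Plagl1. With OB induction 1 promoter was lower (1.4%), that of Usp29, and 1 was higher (0.789%), that of Mkrn3. Of the 51 islands, 1 was at least 0.1 lower before induction (0.255%), Gnas/Nespas 2, and 1 was at least 0.1 higher (0.227%), Peg3/Usp29. With OB induction 1 island was lower (0.355%), Peg3/Usp29 again, and 0 were higher (0.326%). Restricted to the 3541 islands of the band, 2 of 21 gametic-list islands differed by at least 0.1 before induction (1.52%) and 1 of 21 with induction (2.29%). Each member count is at most 2, so a single island moves its share past the background.

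Smaller differences went both ways at gametic-list islands. Before induction 11 of 21 were higher and 10 lower with siDNMT1, where 55.2% of all islands in the band were lower. With OB induction 13 were higher and 8 lower, where 68.1% of the band was lower. The median difference, siDNMT1 minus NC, was 0.00573 before induction and 0.00301 with induction, beside -0.00221 and -0.00982 for the whole band. The sign of the first median rests on few islands: it was -0.00408 without the Igf2r cluster, and -0.00195 when the limit on level was lifted. The comparisons before and after induction share no library, and 5 of 21 islands were lower with siDNMT1 in both, beside 39.4% of the band, while 8 were higher in both, beside 16.1%.

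Peg10/Sgce was the clearest island among those lower in both comparisons. This island serves Peg10, a retrotransposon-derived gene, and Sgce, which encodes epsilon-sarcoglycan and starts in the opposite direction. It was at 0.485, 0.438, 0.526 and 0.446, so siDNMT1 was lower by differences of -0.0469 and -0.0802. The Sgce promoter entry has exactly these levels and adds no evidence of its own. The Peg10 promoter, at 0.472, 0.422, 0.504 and 0.430, and the Peg10 5′ UTR, at 0.520, 0.490, 0.560 and 0.4995, kept both siDNMT1 libraries below both NC libraries. Both regions adjoin or overlap the island and are not independent of it. The Peg10 exon entry differed by -0.00856 and -0.0306. The Peg10 3′ UTR differed by 0.00882 before induction, the other direction, and by -0.0241 with induction. The 4 Peg10/Sgce differences in promoter and island stayed short of 0.1.

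**Figure D3:**
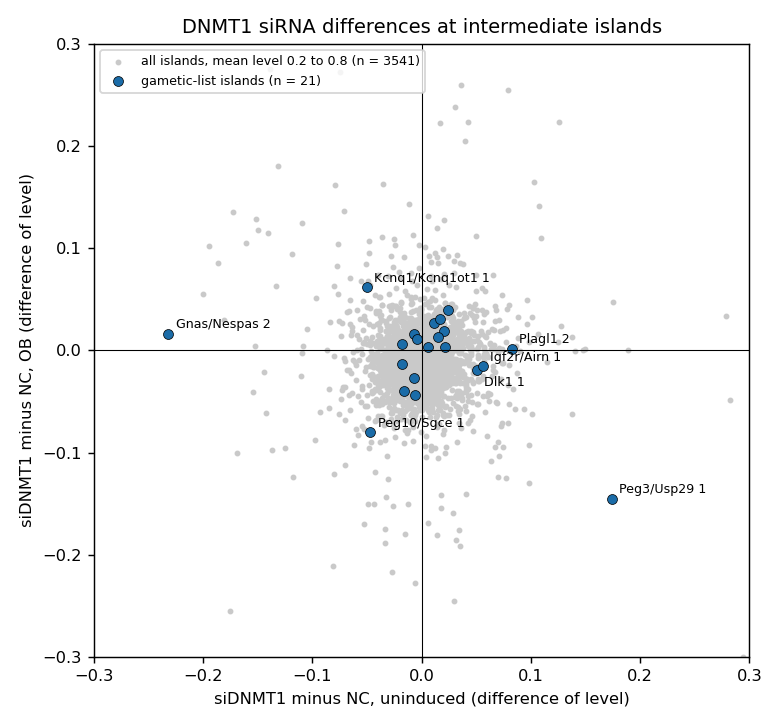
Difference of methylation level between siDNMT1 and NC before induction (horizontal axis) and with OB induction (vertical axis) for 21 gametic-list islands (blue) and all 3541 islands with a mean level of 0.2 to 0.8 (grey), of which 6 lie outside the axes. Most blue points lie near the crossing of the axes, Gnas/Nespas 2 lies far to the left at -0.232, and Peg3/Usp29 lies to the lower right at 0.174 and -0.145.

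Peg3/Usp29 was the most variable island. It touches an exon of Peg3, a zinc finger gene, lies less than 2 kb ahead of Usp29, a ubiquitin peptidase gene on the other strand, spans 336 bases (chr7:6730063-6730398) and holds 27 CpGs. Its level was 0.340, 0.514, 0.631 and 0.486, so NC cells gave both the lowest and the highest value and the siDNMT1 libraries lay between them. The difference siDNMT1 minus NC was 0.174 before induction and -0.145 with induction, and within NC the OB library exceeded the uninduced one by 0.291. The Usp29 promoter and the Peg3 5′ UTR carry the same 4 levels as the island, so the 3 entries are a single measurement. The Peg3 exon entry was at 0.621, 0.627, 0.607 and 0.592 and its range was 0.0348.

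The second Gnas/Nespas island differed in a single library. It spans 270 bases (chr2:174297263-174297532), holds 25 CpGs, and lies in an intron of Gnas within 2 kb of the start of Nespas, an antisense RNA. Its level was 0.484, 0.252, 0.447 and 0.463. The siDNMT1 uninduced library was thus lower than the other 3, and the siDNMT1 OB library was not. The nearest island of Gnas alone, with 167 CpGs, was at 0.661, 0.676, 0.665 and 0.678, and the Nespas promoter was at 0.555, 0.525, 0.544 and 0.561. Neither of these larger regions differed by 0.1 between any pair of libraries.

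Plagl1 and Mkrn3 completed the promoters past 0.1. The Plagl1 promoter was at 0.414, 0.517, 0.437 and 0.432, a difference of 0.103 before induction and -0.00512 with induction. Its neighbouring entries showed the same library standing above the others: the second Plagl1 island was at 0.439, 0.521, 0.447 and 0.449, the intron entry at 0.399, 0.476, 0.392 and 0.392, and the 5′ UTR at 0.478, 0.526, 0.473 and 0.471. These regions adjoin or overlap and are not independent. Mkrn3, a ring finger gene that restrains the onset of puberty, had a promoter at 0.16, 0.129, 0.146 and 0.248 and a 5′ UTR at 0.263, 0.164, 0.225 and 0.295. Its siDNMT1 OB library was the highest in both, while the Mkrn3 island was at 0.272, 0.280, 0.299 and 0.247, where that library was the lowest.

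The remaining genes of the gametic lists had promoters that differed by less than 0.1 between siDNMT1 and NC. Snrpn, a spliceosome protein gene of the Prader-Willi region, was at 0.733, 0.734, 0.735 and 0.704. Mest, a hydrolase gene, was at 0.706, 0.648, 0.644 and 0.688. Slc38a4, an amino acid transporter gene, was at 0.705, 0.641, 0.565 and 0.616, with the 4 libraries spread over 0.140. The promoters of Grb10, at 0.571, 0.560, 0.555 and 0.552, and Zrsr1, at 0.509, 0.507, 0.492 and 0.505, were much steadier. The noncoding RNA gene Meg3 was at 0.561, 0.556, 0.558 and 0.516. The Igf2r promoter was at 0.441, 0.432, 0.385 and 0.422, that of Gnas at 0.414, 0.370, 0.424 and 0.389, that of Peg13 at 0.415, 0.440, 0.415 and 0.421, and that of Mcts2 at 0.489, 0.517, 0.506 and 0.555. The direction of the siDNMT1 difference was thus not shared among them.

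Genes whose mark is acquired after fertilisation had intermediate or high islands, apart from Mkrn3, whose island and promoter, given above, lay below 0.3 in every library. The first Igf2 island, of the fetal growth factor gene, was at 0.478, 0.470, 0.439 and 0.422, and the second was at 0.495, 0.508, 0.488 and 0.514. The Cdkn1c island, of a cyclin-dependent kinase inhibitor gene, was at 0.691, 0.713, 0.689 and 0.653. In the Prader-Willi region, the Ndn island was at 0.510, 0.5005, 0.491 and 0.443, the Magel2 island at 0.454, 0.508, 0.455 and 0.474, and the Peg12 island at 0.372, 0.399, 0.318 and 0.363. No island of this group, Mkrn3 included, differed by 0.1 between siDNMT1 and NC, where 0.482% of all islands did before induction and 0.681% with it.

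Imprinted retrogenes and noncoding RNAs often sit inside an intron of a host gene, and guest and host often had distinct levels. The island at the 5′ end of Commd1, the host of Zrsr1, was at 0.0163, 0.0144, 0.0177 and 0.0163, while the first guest island stayed near 0.5. The Commd1 promoter entry was at 0.341, 0.309, 0.332 and 0.329. The island at the 5′ end of Trappc9 was at 0.0234, 0.0252, 0.0215 and 0.0212, against at least 0.454 in each library at its guest Peg13. The Blcap island, at an internal start of that gene, was at 0.0101, 0.0144, 0.0157 and 0.0144, against levels near 0.9 at its guest Nnat. The Blcap promoter entry was intermediate, at 0.555, 0.534, 0.508 and 0.541. Which of the starts of a gene its promoter entry belongs to is not given. In these 3 pairs the host island named was below 0.03 in every library, while of the host promoters that of Trappc9 alone was. Low islands are common, with a median over all islands of 0.0323 in the NC uninduced library. Another Trappc9 island, at an exon away from annotated starts, was at 0.892, 0.878, 0.900 and 0.883. Igf2r differed from them, since both its own start and the intronic island were near 0.5. Kcnq1, a potassium channel gene, had a start island at 0.303, 0.314, 0.317 and 0.284, while the island of its guest Kcnq1ot1, an antisense RNA that silences the cluster, was at 0.476, 0.426, 0.341 and 0.403. The host H13, a signal peptide peptidase gene, had no promoter entry. Its own island, at an exon away from annotated starts, was at 0.838, 0.835, 0.814 and 0.814.

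**Figure D4:**
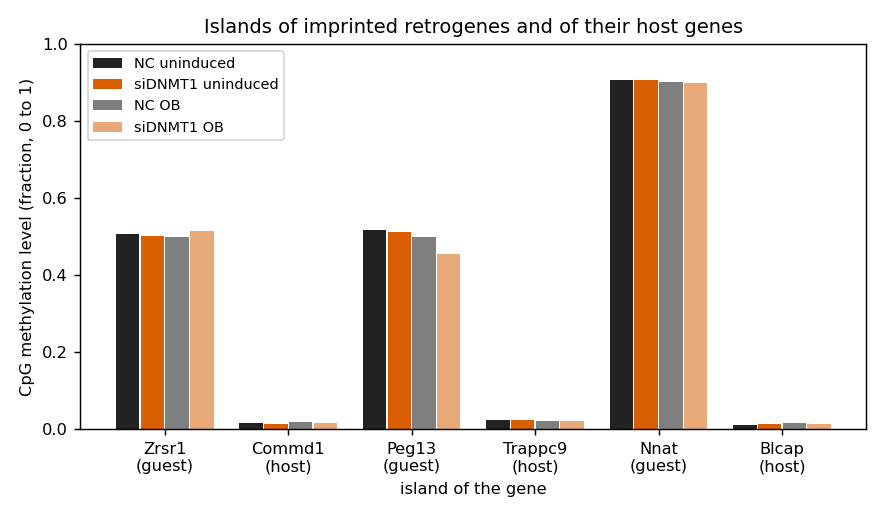
Methylation level (fraction, vertical axis) of CpG islands at 3 imprinted guest genes and at an annotated start of each host gene, internal for Blcap, with 1 bar per library. Guest islands are near 0.5 for Zrsr1 and Peg13 and near 0.9 for Nnat, and all host bars are below 0.03.

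OB induction was compared within each siRNA. By the labels, the 3 days of induction followed the 48 h of transfection, and no uninduced library of that later time was listed. Induction and time in culture thus cannot be told apart in any OB minus uninduced difference. In NC cells 2 of 42 promoters differed by at least 0.1 between OB and uninduced libraries (2.17%), Slc38a4 with a difference of -0.140 and Usp29 with 0.291. In siDNMT1 cells 3 of 42 did (3.36%), H19, Dlk1 and Mkrn3. Of the islands, 2 of 51 differed in NC cells (1.18%), Kcnq1/Kcnq1ot1 by -0.134 and Peg3/Usp29, and 2 of 51 in siDNMT1 cells (1.26%), Dlk1 1 by -0.124 and Gnas/Nespas 2 by 0.211. All of these islands are gametic-list islands, so the same counts are 2 of 21 in NC cells (4.07% of the band) and 2 of 21 in siDNMT1 cells (4.35%).

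Fewer gametic-list islands than band islands were lower with induction, by share. In NC cells 12 of 21 were lower after induction, where 79.1% of the band was lower, and in siDNMT1 cells 12 of 21, where 84.6% of the band was lower. The median difference, OB minus uninduced, was -0.00929 in NC cells, beside -0.0270 for the band, and -0.0223 in siDNMT1 cells, beside -0.0350. The NC median changed sign to 0.00366 over the 13 islands with 50 CpGs or more, beside -0.0305 for islands of that size in the band. For the NC median over the 21 islands, the 95% interval from order statistics, -0.0381 to 0.0142, held the band's median. That interval treats islands as independent, though several share a cluster, and it says nothing of variation between cultures. With no limit on level the NC median was -0.00929, beside -0.00313 for all islands, so the order of the medians turned over. The comparisons in NC and in siDNMT1 cells share no library, and 8 of 21 islands were lower in both, beside 72.3% of the band.

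In the Dlk1-Dio3 cluster, genes at both ends were lower after induction. Dlk1, a membrane protein of preadipocytes and progenitor cells that restrains differentiation, was lower in both OB libraries than in both uninduced libraries in each of its 5 gene entries. Its promoter was at 0.321, 0.364, 0.266 and 0.248, its 5′ UTR at 0.472, 0.514, 0.382 and 0.388, its exons at 0.677, 0.688, 0.606 and 0.605, its introns at 0.733, 0.737, 0.673 and 0.646, and its 3′ UTR at 0.472, 0.478, 0.455 and 0.424. Dio3, which encodes the thyroid hormone inactivating deiodinase, had the same order, with a promoter at 0.583, 0.573, 0.522 and 0.528 and an island of 250 CpGs at 0.525, 0.496, 0.448 and 0.445. Between these genes, the noncoding Rian promoter was at 0.736, 0.732, 0.758 and 0.757 and was higher in both OB libraries, and the Rtl1 exon, of a retrotransposon-derived placental gene, was at 0.762, 0.754, 0.765 and 0.734. Over the cluster's 16 entries, 9 were lower with OB in NC cells and 15 in siDNMT1 cells, with medians of -0.0102 and -0.0423. Over all gene entries of the series 61.7% and 72.0% were lower, with medians of -0.00339 and -0.00800. That background is not matched for level: 58.6% of all promoters lay below 0.3 in the NC uninduced library, with less room to fall. Over the islands of mean level 0.2 to 0.8, 79.1% and 84.6% were lower, with medians of -0.0270 and -0.0350.

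In the Igf2-H19 cluster, 8 of 12 entries were lower with OB in NC cells and 12 of 12 in siDNMT1 cells, with medians of -0.0148 and -0.0334, beside 61.7% and 72.0% of all gene entries. The NC count, 66.7%, was near that background, which is not matched for level. Both medians were smaller in size than those of the islands of mean level 0.2 to 0.8, -0.0270 and -0.0350. The Igf2 promoter was at 0.478, 0.466, 0.433 and 0.420, and its 5′ UTR was at 0.506, 0.495, 0.465 and 0.446. Both were lower in each OB library than in either uninduced library. The promoter of H19, the noncoding RNA made from the maternal copy, was at 0.697, 0.659, 0.614 and 0.5504 and had this order too. The H19 exon entry was at 0.516, 0.550, 0.599 and 0.528 and did not. Th, the tyrosine hydroxylase gene at the edge of the cluster, had a promoter at 0.399, 0.422, 0.388 and 0.401. Entries of 1 gene adjoin each other and share its CpGs in part, so the entries are not separate observations.

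**Figure D5:**
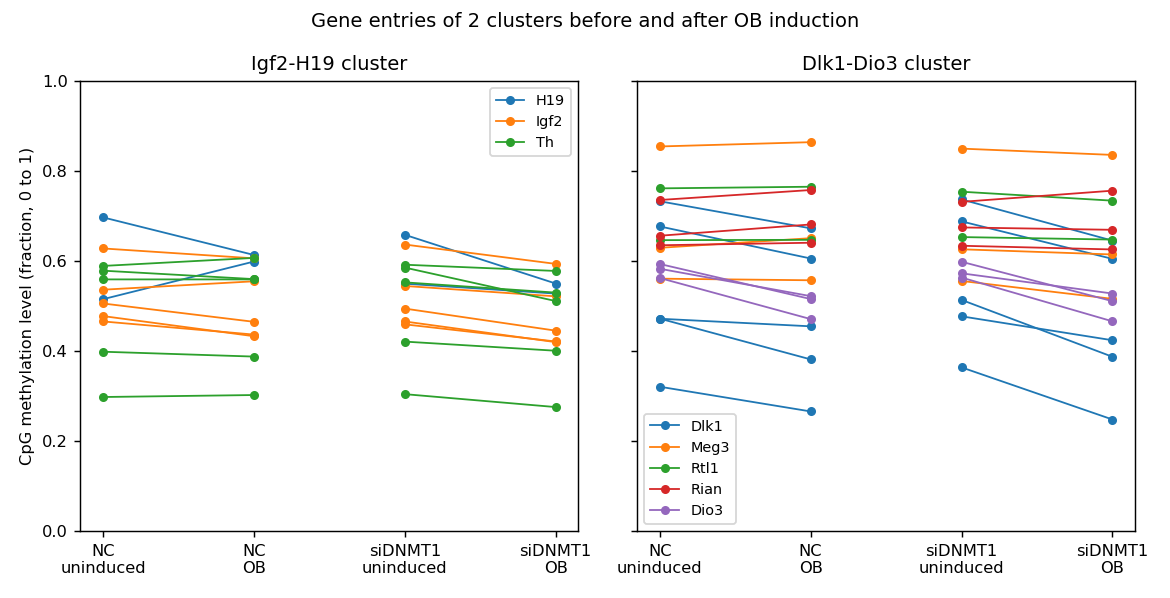
Methylation level (fraction, vertical axis) of the gene entries in the Igf2-H19 cluster (left) and the Dlk1-Dio3 cluster (right), with each line joining the uninduced library to the OB library of the same siRNA. Dlk1 and Dio3 lines fall in NC and in siDNMT1 cells, Rian lines rise in NC cells, and all 12 Igf2-H19 entries are lower with OB in siDNMT1 cells.

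Gene bodies of the imprinted genes showed few differences between siDNMT1 and NC. Among 5′ UTRs, 1 of 36 differed by at least 0.1 before induction (1.4%) and 1 of 36 with induction (1.78%), both times the Peg3 entry that repeats the Peg3/Usp29 island. Among exons, 0 of 50 differed before induction (1.63%) and 2 of 50 with induction (2.3%). These were Rasgrf1, at 0.685, 0.680, 0.597 and 0.462, and Ddc, the dopa decarboxylase gene beside Grb10, at 0.714, 0.625, 0.392 and 0.652. Among introns, 1 of 40 differed before induction (1.32%), that of the zinc finger gene Zim1 at 0.182, 0.0714, 0.258 and 0.241, and 0 of 40 with induction (1.87%). Among 3′ UTRs, 0 of 16 differed before induction (2.71%) and 0 of 16 with induction (3.65%). Over all 184 entries, 102 were lower with siDNMT1 before induction and 127 with induction, or 55.4% and 69.0%, close to 55.9% and 66.8% of all gene entries of the series.

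The ZFP57 hexamer was counted on both strands of each island, and matches that overlap were each counted. The gametic lists rest on known imprinting control regions, which ZFP57 is known to help keep, so the hexamer is not independent of the lists. The 22 islands of the maternal list, whatever their level, held 71 hexamers in 20334 bases, or 3.49 per kb, and 19 of the 22 held at least 1. All 14354 islands on the main chromosomes held 1.31 per kb, and 52.9% had at least 1. Because islands differ in length, their central 200 bases were also compared: 14 of 22 (63.6%) of the maternal list had the hexamer there, beside 23.9% of all islands. The 26 islands that touch no gene of the gametic lists had it there in 2, or 7.69%, and held 0.972 per kb. The 3 islands of the paternal list held 0.817 per kb, each with 1 hexamer, and 2 of the 3 had it in the central 200 bases. Among islands of mean level 0.2 to 0.8, 13 of the 21 gametic-list islands (61.9%) had it there, beside 22.6% of the others. The 21 gametic-list islands held 2.85 per kb and the others 1.36.

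The islands with the most hexamers per kb were the second Inpp5f island at 9.79, Nap1l5 at 9.43, Peg13/Trappc9 at 8.53, Plagl1 2 at 7.82 and Nnat/Blcap at 7.53. Their levels ran from 0.439 for Plagl1 2 to 0.908 for Nnat/Blcap in the NC uninduced library. The first Zrsr1/Commd1 island, the steadiest at 0.5, held 0 hexamers in 1019 bases. Letters in an island are a description and say nothing of whether ZFP57 bound there.

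Promoters of 11 genes whose products keep imprints were also listed. Of these, 7 were below 0.1 in the NC uninduced library, among them Uhrf1, the DNMT1 partner, at 0.0224, 0.0202, 0.0216 and 0.0174, and Trim28, the ZFP57 corepressor, at 0.00782, 0.0135, 0.00949 and 0.00918. Low promoters are common: 58.6% of all promoters lay below 0.3 in that library, and the share below 0.1 was not counted. Among the 11, only Dppa3, a factor that guards methylation in the early embryo, differed by 0.1 between siDNMT1 and NC, at 0.3603, 0.342, 0.341 and 0.442. It did so with OB induction, where 2.19% of all promoters did. The promoter of Hells, a chromatin remodeller, was at 0.648, 0.624, 0.573 and 0.534. Of 18 further imprinted genes outside the 56, 12 had a promoter with 4 levels, 5 of them between 0.3 and 0.7 (30.8% of all promoters). Of these 12, 0 differed by 0.1 in any of the 4 comparisons, where 1.48% to 3.36% of all promoters did.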

How the data were processed

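RRBS was read in 4 libraries of C3H10T1/2 cells, 1 per condition, and conditions were taken from the sample labels. Per the study's methods, the authors cleaned reads with Trimmomatic 0.36 and mapped them with Bismark 0.16.3 on mm10. The values they deposited are methylated fractions of the CpG cytosines in a region, on a scale of 0 to 1 and without read counts. The coverage minimum is not given in the sources used here, depth is unknown, and the labels describe sonicated DNA beside the name RRBS, so the set of sampled CpGs is not certain. Between 155398 and 159705 regions were listed per library.

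Genes were placed with GENCODE vM21 on GRCm38, and every one of the 14354 islands on the autosomes, X and Y started and ended with CG in that assembly. Islands overlapping a gene or its 2 kb upstream were assigned to it, and 12 islands touched more than 1 gene. Only regions listed by all 4 libraries entered the differences, and a change was counted from 0.1. There were no replicates, so no test was run. The genes, lists and thresholds were chosen with earlier results of these data known. Described gene by gene were those with a gametic mark, those with a promoter or island past 0.1 with siDNMT1, host and guest pairs, and both ends of the promoter order. Entries and neighbours outside that rule were chosen after their values were seen. The alternatives were another threshold, band, set of regions, centring of libraries, gene annotation and a gene cluster left out. Counting was checked on simulated levels. The work was done in Python 3.11.15 with numpy 2.4.6 and pandas 2.3.3, with scipy 1.17.1 for the intervals of medians, and figures were drawn in matplotlib 3.10.9. RNA-seq was not analysed here.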

Additional observations from a re-analysis of the deposited data

Results flagged for a closer look

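In 5 regions, which are 4 separate measurements, the difference siDNMT1 minus NC was past 0.1 in one state of induction and had the other sign in the other state. With 1 library per condition this contrast between states was not tested. The Usp29 promoter differed by 0.174 before induction and by -0.145 with OB induction, and the Peg3/Usp29 island, which has the same levels, by 0.174 and -0.145. The second Gnas/Nespas island differed by -0.232 before induction and by 0.0163 with induction. The Plagl1 promoter differed by 0.103 and -0.00512, and the Mkrn3 promoter by -0.0314 and 0.102. The Peg3/Usp29 and second Gnas/Nespas islands hold 27 and 25 CpGs, and the median over all 51 islands of imprinted genes is 60. The second Plagl1 island, where the same library was highest as in the Plagl1 promoter, holds 72. The part of CpG number or of read depth in these differences was not tested.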

How the results depend on the processing

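No paired analysis was possible because each condition had 1 library, and for the same reason no library could be left out. Counting a change from 0.05 before induction gave 3 promoters lower with siDNMT1 (0 at 0.1; 3.67% of all), 2 islands lower (1.05%) and 5 higher (1.27%). With OB induction it gave 4 promoters lower (6.86%) and 2 higher (2.49%), and 3 islands lower (1.94%) and 2 higher (0.979%; 0 at 0.1). For induction in NC cells it gave 6 promoters lower (6.86%) and 2 higher (3.06%), and 5 islands lower (6.29%). Counting from 0.2 left 0 promoters higher before induction (0.189% of all). It left 0 promoters lower (0.243%) and 0 higher (0.223%) with OB induction, and 0 lower on induction in NC cells (0.243%). It left 0 islands higher before induction (0.0426%), 0 lower with OB induction (0.0568%) and 0 lower on induction in NC cells (0.0780%). With such small shares over all regions, counts of 0 say little of the imprinted genes. Over gametic-list islands, the median difference before induction turned to -0.00408 without the Igf2r cluster and to -0.00195 with no limit on level, and the NC induction median turned to 0.00366 over islands with 50 CpGs or more, an alternative chosen after seeing the data. The cause was not tested. In 57 other recalculations of counts and medians and 7 of single regions, counts stayed within 1.5 times and medians kept their sign and stayed inside their 95% interval from order statistics. That interval treats islands as independent, and the recalculations use largely the same islands. Staying inside it is thus a weak check and says nothing of variation between cultures. Unknown depth limits every level.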

Other observations

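Neighbours inside imprinted clusters that carry no mark of their own held a wide span of levels. In the Kcnq1 cluster the island of Cd81, a tetraspanin gene, was at 0.0206, 0.0227, 0.0157 and 0.0185 in the NC uninduced, siDNMT1 uninduced, NC OB and siDNMT1 OB libraries. The island of Phlda2, which restrains placental growth, was at 0.171, 0.182, 0.135 and 0.135, and that of Ascl2, a transcription factor gene of trophoblast, at 0.207, 0.2005, 0.182 and 0.182. Both were lower in each OB library than in either uninduced library. The Phlda2 promoter went the other way, at 0.119, 0.1202, 0.194 and 0.189, so the promoter was higher with OB where the island was lower. Around Mest, the island of Copg2 was at 0.0158, 0.0134, 0.0185 and 0.0166 and that of Klf14, a single-exon transcription factor gene, at 0.764, 0.756, 0.736 and 0.737. Near Peg10, the island of Calcr, the calcitonin receptor gene, was at 0.273, 0.267, 0.207 and 0.259, and that of Ppp1r9a at 0.371, 0.372, 0.333 and 0.328. None of the islands and promoters named here differed by 0.1 between siDNMT1 and NC. In either state of induction, at most 0.681% of all islands and 2.19% of all promoters did.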
